A study of Mus musculus with 15 samples.

Results

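The transcripts described here encode parts of activin and TGF-beta signalling in mouse macrophages: the ligand subunits Inhba and Tgfb1, the receptors Acvr1, Acvr2a, Tgfbr1 and Tgfbr2, the transducer Smad3 and the secreted target Tgfbi. Every probe that the platform annotation gives to one of 9 listed genes was taken, which yielded 8 genes of 13676 named in the authors' normalized table, with 15 of its 25784 probes. Of these probes, 14 were bright enough to be tested, among 24195 probes tested in all. Smad7, the ninth gene of the list, was not analysed here. The genes were selected on their measured differences between LPS-treated and untreated arrays, so those differences, and the calls counted for them in the fit over all probes, are a description and support nothing. The effects of fatty acid loading were tested.

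The cells were adherent peritoneal macrophages, drawn into the abdominal cavity of mice with 3% thioglycollate, an irritant broth, and cultured with 0.5% serum and 5.5 mM glucose. In the Unstim group, 3 arrays hold cells without fatty acid that received vehicle for 24 h, and in the FA group 4 arrays hold fatty acid-loaded cells that received vehicle. In the LPS group, 4 arrays hold cells without fatty acid given bacterial lipopolysaccharide at 10 ng/ml for 24 h, and in the FA+LPS group 4 arrays hold loaded cells given the same LPS. No source used here names the fatty acid or the mouse strain, or says whether animals were pooled. The arrays come from 4 independent experiments, of which experiment 2 has no Unstim array here, and from 3 slides.

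Activins and TGF-betas are secreted dimers that bind a type II receptor kinase, which then phosphorylates a type I receptor kinase. The type I receptor phosphorylates Smad2 and Smad3, which enter the nucleus with Smad4 and act on transcription. Macrophages make both kinds of ligand. TGF-beta is best known in them for restraining inflammatory activation, and activin A, the dimer of the Inhba product, is released during inflammation.

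Values are log2 intensities after background correction and quantile normalization. Because 50 units were added to every signal before the logarithm, dim probes lie near 6, and fold changes of dim probes are understated. The level at which a probe counted as above background was 6.02 to 6.07 on this scale. The number of probes above background was 17970 to 18998 on 14 arrays and 15781 on the array of FA replicate 1. No pair of arrays of the same group correlated above 0.993. Of 8 macrophage markers 7 were measured. Group means were 13.75 to 14.49 for Lyz2, 10.14 to 12.98 for Cd14, 8.46 to 10.66 for Adgre1, 8.59 to 9.85 for Csf1r, 7.36 to 8.5 for Mertk and 6.77 to 7.08 for Itgam. Fcgr1 had means of 5.96 to 7.02 and exceeded background on 11 arrays.

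The stretches of 250 bases before the RefSeq transcription start (mouse build GRCm38.p6) of 4 genes are shown because these genes moved with LPS, in opposite directions, and their promoters differ in composition. Inhba and Tgfbi were higher with LPS, and Tgfbr2 and Smad3 were lower. Sequences read 5′ to 3′ on the gene's strand, and capitals mark motif matches on either strand.

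Inhba, chr13:16011601-16011850 (+): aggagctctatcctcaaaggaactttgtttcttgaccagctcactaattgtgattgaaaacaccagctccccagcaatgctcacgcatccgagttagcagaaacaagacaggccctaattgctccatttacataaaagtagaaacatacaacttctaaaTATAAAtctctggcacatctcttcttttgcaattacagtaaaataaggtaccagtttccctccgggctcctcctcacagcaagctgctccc
Tgfbi, chr13:56609336-56609585 (+): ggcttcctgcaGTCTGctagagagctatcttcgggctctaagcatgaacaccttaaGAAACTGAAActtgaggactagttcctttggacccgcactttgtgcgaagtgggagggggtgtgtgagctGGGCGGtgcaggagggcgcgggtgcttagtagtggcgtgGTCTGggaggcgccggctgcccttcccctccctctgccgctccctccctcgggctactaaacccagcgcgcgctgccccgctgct
Tgfbr2, chr9:116175364-116175613 (-): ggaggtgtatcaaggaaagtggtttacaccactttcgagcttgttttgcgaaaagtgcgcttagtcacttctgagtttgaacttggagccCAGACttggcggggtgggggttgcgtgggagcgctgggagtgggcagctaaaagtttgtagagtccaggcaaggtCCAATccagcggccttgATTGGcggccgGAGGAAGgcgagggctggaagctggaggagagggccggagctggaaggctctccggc
Smad3, chr9:63757995-63758244 (-): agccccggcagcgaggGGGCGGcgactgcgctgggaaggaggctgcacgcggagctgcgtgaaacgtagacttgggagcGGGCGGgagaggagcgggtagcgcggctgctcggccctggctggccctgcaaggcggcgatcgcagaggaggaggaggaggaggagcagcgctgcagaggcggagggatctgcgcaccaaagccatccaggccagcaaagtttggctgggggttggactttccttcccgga

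The Inhba stretch had a GC content of 43.2%, and 19% of the 32817 mouse promoters of this length had less. Tgfbr2 had 58.4%, Tgfbi 62.4% and Smad3 69.2%, against a median of 52.4% over all promoters. The Inhba stretch held TATAAA, at bases 91 to 86 before the start, a motif present in 12.4% of promoters. The Tgfbi stretch held CAGAC, the short Smad-binding element (42.2% of promoters), on its reverse strand at bases 239 to 235 and 85 to 81. It also held GGGCGG (32.7%) and the interferon-stimulated response element (2.97%). The Tgfbr2 stretch held CAGAC once, the CCAAT box (33.8%) once on each strand, and GAGGAAG, the PU.1 motif (10.6%). The Smad3 stretch held GGGCGG at 2 places. The other letters searched on both strands were TGANTCA (6.75%), TGACGTCA (1.55%), GTCTAGAC (0.168%) and the NF-kB consensus (7.25%). Of the 9 promoters of the 8 genes, that of Tgfb1 held the NF-kB consensus, which spans bases 140 to 131 and reads as a match on both strands. A match or its absence describes only these letters in this window.

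LPS moved the genes to both sides. Inhba and Tgfbi, a ligand and a target, rose with LPS whether or not the cells were loaded with fatty acid. Tgfbr1, Tgfbr2 and Smad3, the TGF-beta receptors and their transducer, fell in both settings. Tgfb1, Acvr1 and Acvr2a were not among the genes called in either. In LPS against Unstim, 6 of 14 probes were called at an adjusted p below 0.05 by limma, 3 higher and 3 lower. Among all probes tested, 17.9% were called in that comparison, 7.68% higher and 10.2% lower. In FA+LPS against FA, which shares no array with it, 6 of 14 were called, 3 higher and 3 lower, against 16.3% of all probes (7.23% higher and 9.02% lower). In FA+LPS against Unstim, which shares arrays with both, the count was again 6, against 14.8%. Since the genes were chosen for these differences, nothing is read from the counts. The median difference over the 8 genes was 0.095 in LPS against Unstim and 0.048 in FA+LPS against FA, beside -0.007 over all probes in each.

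**Figure D1:**
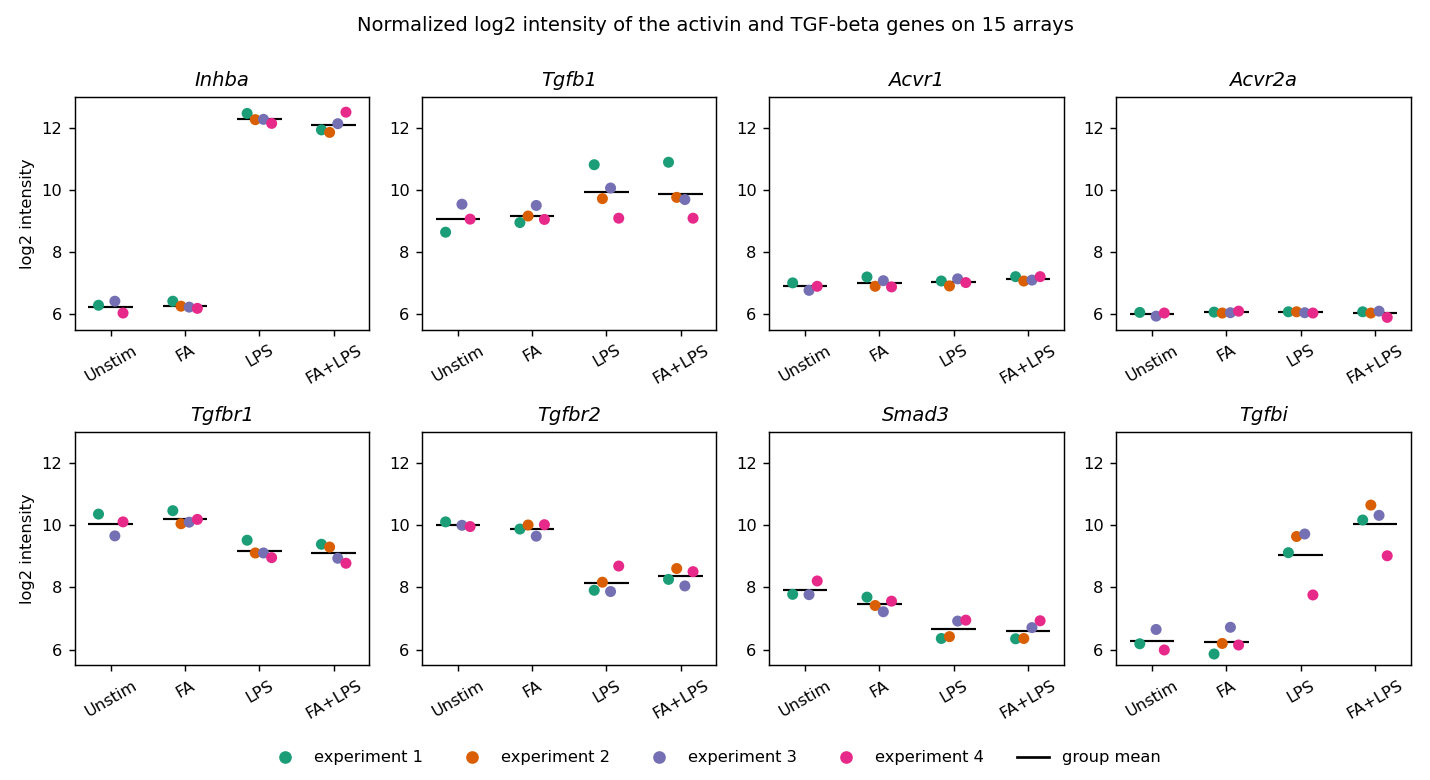
Normalized log2 intensity (y axis) of the 8 genes, 1 probe a gene, on 15 arrays by group (x axis); each point is an array, coloured by experiment, and lines are group means. With LPS, Inhba lies between 11.85 and 12.5 and without it between 6.04 and 6.42, while Tgfbr1, Tgfbr2 and Smad3 lie lower with LPS and Acvr2a stays near 6 on every array.

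Inhba encodes the beta A subunit that forms activin A, and it was the gene of the list that moved most. Its log2 intensity was 6.29, 6.42 and 6.04 on the Unstim arrays and 6.42, 6.26, 6.23 and 6.19 on the FA arrays. It was 12.46, 12.26, 12.27 and 12.14 on the LPS arrays and 11.93, 11.85, 12.13 and 12.5 on the FA+LPS arrays. All 8 LPS-treated arrays lay far above all 7 others, and the groups did not overlap. Such a lack of overlap, in either direction, was found for 26.2% of all probes between LPS and Unstim and for 18.5% between FA+LPS and FA. Inhba rose with LPS by 6.03 ± 0.14 (SE) on the log2 scale in cells without fatty acid, a 65.5-fold rise, and by 5.83 ± 0.13 (56.7-fold) in loaded cells. Within the 3 experiments that hold both arrays the first difference was 5.85 to 6.18, and within the 4 experiments the second was 5.51 to 6.31. Among 12984 genes, the difference of Inhba ranked 7 from the highest in LPS against Unstim and 8 in FA+LPS against FA.

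Fatty acid loading did not move Inhba past the threshold. The difference of FA from Unstim was 0.03 (95% confidence interval -0.27 to 0.32; limma, adjusted p = 1). Both groups read 6.04 to 6.42, close to the background level of 6.02 to 6.07. Differences are understated there, so this interval limits little of what fatty acid may do to Inhba without LPS. The difference of FA+LPS from LPS was -0.18 (-0.45 to 0.09; limma, adjusted p = 0.872), lower in 3 of 4 experiments and higher by 0.36 in experiment 4.

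Tgfb1 encodes TGF-beta 1, which is secreted in a latent form. Its log2 intensity was 8.64, 9.54 and 9.06 in Unstim cells of experiments 1, 3 and 4, and 8.95, 9.16, 9.5 and 9.05 in FA cells of experiments 1 to 4. It was 10.81, 9.72, 10.06 and 9.09 in LPS cells and 10.89, 9.76, 9.69 and 9.09 in FA+LPS cells of the same experiments. The groups overlapped, and the arrays of experiment 1 were the highest with LPS and the lowest without it. The mean difference of LPS from Unstim was 0.84 ± 0.40 and that of FA+LPS from FA 0.69 ± 0.37, neither of them called. By experiment, LPS minus Unstim was 2.18 in experiment 1, 0.52 in experiment 3 and 0.03 in experiment 4. FA+LPS minus FA was 1.94, 0.60, 0.19 and 0.04 in experiments 1 to 4. The LPS difference of Tgfb1 thus spanned a wider range over experiments than that of Inhba, with and without fatty acid. Slides 1, 2 and 3 carry the arrays of experiments 1, 2 and 3, and those of experiment 4 are spread over all of them, so experiment and slide cannot be told apart for the first 3. Within slide 1 the difference of LPS from Unstim was 2.18, and within slide 3 it was 0.76. With slide as a block the mean became 1.18.

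Fatty acid loading gave no called difference in Tgfb1. FA differed from Unstim by 0.09 (-0.77 to 0.94) and FA+LPS from LPS by -0.06 (-0.85 to 0.72), each with an adjusted p of 1 by limma. Differences of up to about the size of the LPS difference lie within these intervals, which include the spread between experiments. Within the experiments, FA minus Unstim was -0.04 to 0.32 and FA+LPS minus LPS was -0.37 to 0.08.

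**Figure D2:**
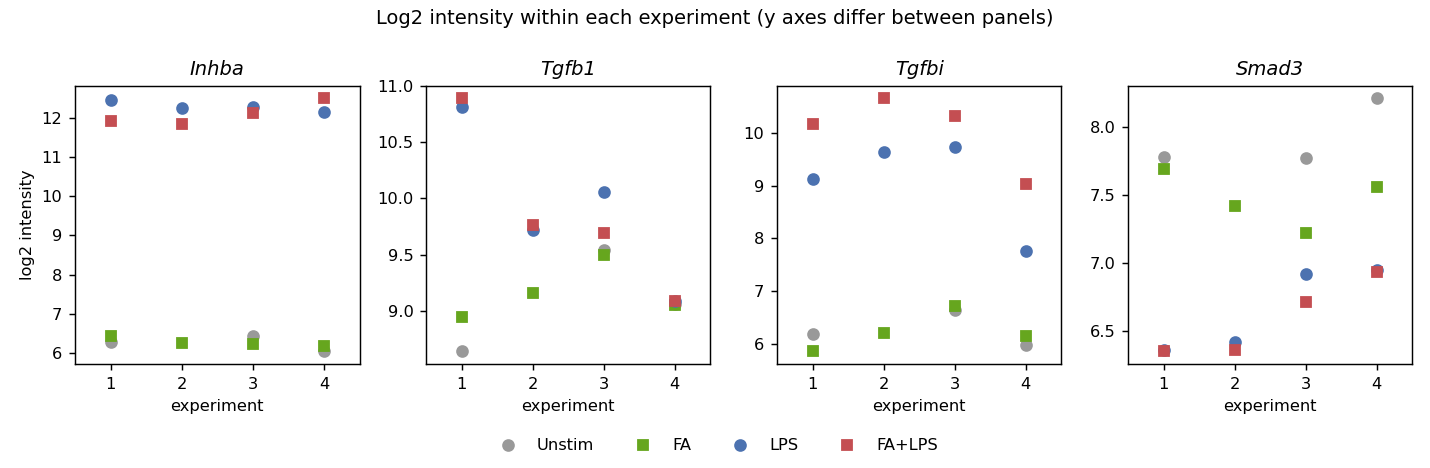
Log2 intensity (y axis, scaled per panel) of Inhba, Tgfb1, Tgfbi and Smad3 in each of the 4 experiments (x axis); grey and green are Unstim and FA, blue and red are LPS and FA+LPS. For Tgfb1 the distance between LPS and Unstim shrinks from 2.18 in experiment 1 to 0.03 in experiment 4, while for Tgfbi the FA+LPS array lies above the LPS array in each experiment, by 0.59 to 1.26.

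Among the genes named as activin receptors, Acvr1 encodes a type I receptor and Acvr2a a type II receptor. The brighter Acvr1 probe read 6.77 to 7.01 in Unstim, 6.88 to 7.2 in FA, 6.91 to 7.14 in LPS and 7.07 to 7.21 in FA+LPS cells. All FA+LPS arrays lay above all Unstim arrays. A lack of overlap between these groups, in either direction, was found for 23.6% of all probes. The difference was 0.26 ± 0.09, and it was 0.29 with experiment and 0.30 with slide as a block. The other Acvr1 probe exceeded background on only 2 arrays and was not tested. Acvr2a read 5.9 to 6.1 on all 15 arrays, which is about the background level, and its differences with LPS, 0.05 and -0.04, were not called. It exceeded background on 2 of 3 Unstim, 3 of 4 FA, 4 of 4 LPS and 3 of 4 FA+LPS arrays. For fatty acid, Acvr1 differed by 0.12 (-0.07 to 0.31) without LPS and by 0.11 (-0.06 to 0.29) with it (limma, adjusted p = 1 and 0.884).

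Tgfbr2, the type II receptor that binds TGF-beta, was the receptor that fell most. It read 10.11, 10 and 9.96 on the Unstim arrays and 9.88, 10.01, 9.65 and 10.02 on the FA arrays. It read 7.91, 8.17, 7.87 and 8.69 with LPS and 8.26, 8.61, 8.05 and 8.51 with FA+LPS. No LPS-treated array reached any array without LPS. Tgfbr2 fell by 1.86 ± 0.18 on the log2 scale from Unstim to LPS (3.63-fold) and by 1.53 ± 0.16 from FA to FA+LPS (2.89-fold), and it fell in every experiment. In these bulk samples, fewer cells of a type and less RNA per cell cannot be told apart. Its other probe was dim, between 6.07 and 6.56, and its differences of -0.14 and -0.20 were not called. For fatty acid, Tgfbr2 differed by -0.13 (-0.51 to 0.25) without LPS and by 0.20 (-0.16 to 0.55) with it, neither called (limma, adjusted p = 1 and 0.932).

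Tgfbr1 encodes the type I receptor, which carries the signal to Smad2 and Smad3. Its brightest probe read 10.36, 9.66 and 10.11 in Unstim and 10.47, 10.05, 10.1 and 10.19 in FA cells. It read 9.52, 9.11, 9.11 and 8.96 in LPS and 9.39, 9.3, 8.94 and 8.78 in FA+LPS cells. The groups with and without LPS did not overlap, but the lowest Unstim array and the highest LPS array were close. Tgfbr1 fell by 0.87 ± 0.18 with LPS alone and by 1.10 ± 0.17 in loaded cells. The 3 other Tgfbr1 probes read 5.8 to 6.4 on all arrays, and none was called. For fatty acid, Tgfbr1 differed by 0.16 (-0.24 to 0.55) without LPS and by -0.07 (-0.44 to 0.29) with it (limma, adjusted p = 1 in both).

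Smad3, the receptor-activated transcription factor, fell with LPS as well. It read 7.78, 7.77 and 8.21 in Unstim, 7.69, 7.42, 7.22 and 7.56 in FA, 6.36, 6.42, 6.92 and 6.95 in LPS and 6.35, 6.36, 6.71 and 6.93 in FA+LPS cells. The order of the groups was Unstim, FA, then LPS and FA+LPS, and the last of these pairs overlapped almost completely. Smad3 fell by 1.26 ± 0.18 from Unstim to LPS and by 0.88 ± 0.17 from FA to FA+LPS. Its dimmer probe, at 5.93 to 6.36, differed by -0.14 and -0.13, neither called.

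Of the 8 genes, Smad3 had the only groups that did not overlap between FA and Unstim, a lack of overlap found, in either direction, in 4.65% of all probes. All 4 FA arrays lay below all 3 Unstim arrays, and FA was lower in 3 of 3 experiments, by 0.09 to 0.65. The mean difference was -0.45 (-0.84 to -0.05), which did not pass the correction over all probes (limma, adjusted p = 1). In that comparison 0.00413% of all probes, a single one, was called. With LPS present, FA+LPS differed from LPS in Smad3 by -0.07 (-0.44 to 0.29; limma, adjusted p = 1). The difference between these fatty acid effects was 0.37 (-0.16 to 0.91; limma, adjusted p = 1). With LPS the probe read 6.35 to 6.95, where differences are understated more than at its levels without LPS.

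Tgfbi encodes a secreted matrix protein named for its induction by TGF-beta. Its brighter probe read 6.19, 6.65 and 5.99 in Unstim and 5.86, 6.2, 6.72 and 6.15 in FA cells, where it exceeded background on 2 of 3 and 3 of 4 arrays. It read 9.12, 9.64, 9.72 and 7.76 in LPS and 10.17, 10.65, 10.32 and 9.02 in FA+LPS cells. Experiment 4 gave the lowest value in both LPS-treated groups, yet every LPS-treated array lay above every other. Tgfbi rose by 2.78 ± 0.44 with LPS alone (6.88-fold) and by 3.81 ± 0.40 in loaded cells (14-fold). The second probe moved the same way, by 1.26 ± 0.30 and 2.05 ± 0.28.

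Fatty acid and LPS together gave a higher mean of Tgfbi than LPS alone. FA+LPS exceeded LPS in 4 of 4 experiments, by 0.59 to 1.26 with the brighter probe and by 0.57 to 1.01 with the other. The mean differences were 0.98 (0.12 to 1.84; limma, adjusted p = 0.483) and 0.78 (0.19 to 1.37; limma, adjusted p = 0.346), and neither passed the correction over all probes. In this comparison 0.521% of all probes were called. With experiment as a block the adjusted p was 0.0683 and 0.0832, against 1.77% of all probes called. Without FA+LPS replicate 4 the second probe passed, with a difference of 1.09 and an adjusted p of 0.0259, and the brighter one did not. Without LPS replicate 4 the differences fell to 0.55 and 0.54 (adjusted p = 0.818 and 0.655). Over all arrays left out in turn, that of the brighter probe was 0.55 to 1.32, with an adjusted p of 0.144 to 0.818. Without LPS, FA differed from Unstim by -0.05 (-0.98 to 0.89; limma, adjusted p = 1), and the difference between the fatty acid effects was 1.03 (-0.24 to 2.29; limma, adjusted p = 1). With experiment as a block the latter was 1.15 ± 0.37 (limma, adjusted p = 0.376). For the other probe it was 0.86 ± 0.31 (limma, adjusted p = 0.469), so neither passed. Tgfbi lay near background without LPS, where differences are understated, which limits both of these comparisons. Among 12984 genes, the FA+LPS minus LPS difference of Tgfbi ranked 22 from the highest. That rank is a description only, since the members were chosen with earlier results of these data known.

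A neutrophil marker moved beside Tgfbi. S100a8 had group means of 8.39, 8.43, 9.49 and 10.59 in Unstim, FA, LPS and FA+LPS cells, and it rose from LPS to FA+LPS by 1.11 (limma, adjusted p = 0.0211), 1 of 5 neutrophil markers measured to do so. The summed linear level of those 5 was 529 to 649 in Unstim, 572 to 635 in FA, 840 to 1250 in LPS and 1270 to 2180 in FA+LPS cells. S100a8 was the brightest of the 5 in every group, so the sum follows mainly that gene. Mpo and Cxcr2 stayed at the background level, with group means of 5.92 to 6.02, and Elane had means of 6.12 to 6.18. Camp rose with LPS, by at least 1.06-fold and in loaded cells at least 1.2-fold. Among 7 mesothelial and fibroblast markers, Dcn rose with LPS by 2.26 and 2.02, while Col1a1, Msln and Lum stayed at 5.91 to 6.06. Upk3b, Col1a2 and Pdgfra had group means of 6.03 to 6.27, and Dcn was the brightest of the 7 in every group. The sum of the 7, which follows mainly Dcn, was 497 to 535 in Unstim, 492 to 517 in FA, 794 to 1050 in LPS and 717 to 1140 in FA+LPS cells. The 7 macrophage markers summed to 24100 to 26400 in Unstim, 23800 to 26500 in FA, 18900 to 26300 in LPS and 21200 to 35100 in FA+LPS cells. Lyz2 was the brightest of the 7 in every group, so it weighs most in this sum. In LPS against Unstim 3 of the 7 rose and 2 fell, beside 17.9% of all probes called. In FA+LPS against FA 3 rose and 1 fell, beside 16.3%. Adgre1 differed by 1.81 and 2.13, Cd14 by 1.88 and 2.84, Mertk by -0.85 and -0.96 and Lyz2 by -0.71 and -0.40. The part of any of these cell types in the differences of the 8 genes was not tested.

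**Figure D3:**
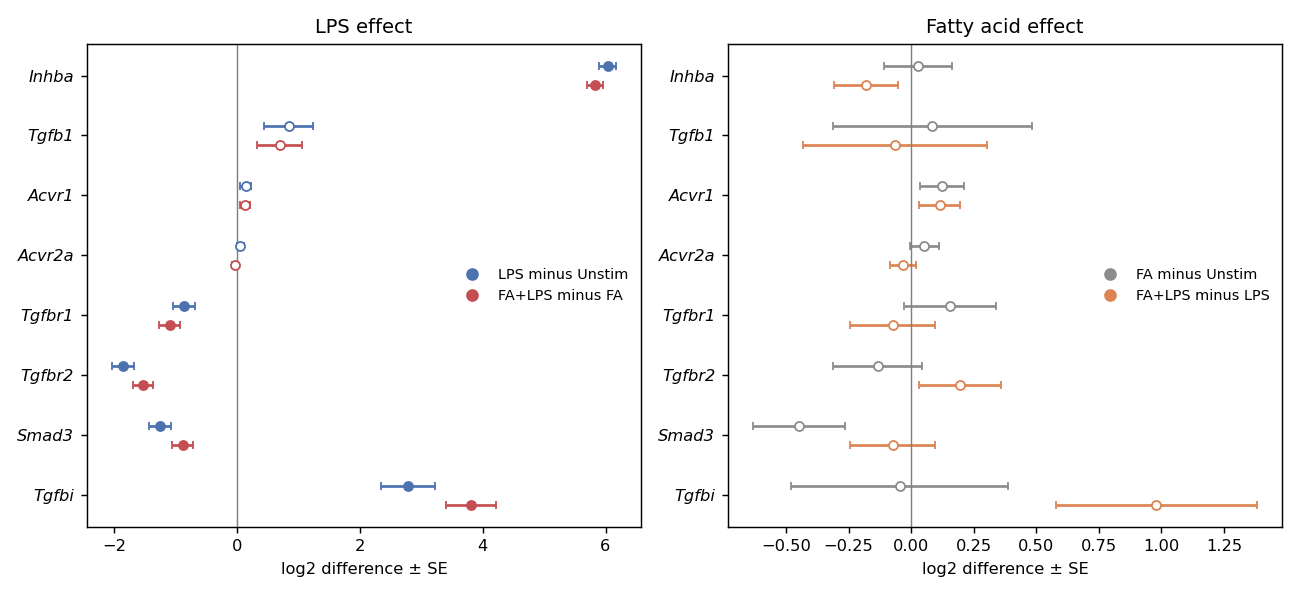
Log2 differences ± SE (x axis) of the 8 genes, for LPS in unloaded and loaded cells (left) and for fatty acid without and with LPS (right); filled points were called at an adjusted p below 0.05. Inhba lies near 6 and Tgfbi at 2.78 and 3.81 on the left, and no point is filled on the right, where Tgfbi with LPS lies highest at 0.98.

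None of the 14 probes was called for fatty acid without LPS, for fatty acid with LPS, or for the difference between these effects by limma. The share of all probes called in the last was 0.0248%. The median difference of the 8 genes was 0.04 for FA against Unstim and -0.048 for FA+LPS against LPS, beside -0.002 and 0.002 over all probes. At an unadjusted p below 0.05, 684 and 2035 of all probes passed. The called count over all probes in FA+LPS against LPS, 126, was 66 without FA+LPS replicate 2 and 203 without FA+LPS replicate 4.

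Quantile normalization gives every array the same distribution of values. With median scaling in its place, the difference of Tgfbr1 was -0.59 in LPS against Unstim and in FA+LPS against FA. That of the dimmer Tgfbi probe was 1.31 in LPS against Unstim, and those of Tgfbr2 and Smad3 were -1.07 and -0.71 in FA+LPS against FA. In FA+LPS against Unstim, those of Tgfbr1 and Tgfbr2 were -0.625 and -1.37. These values fell short of the threshold in that fit. They are given as a description, since the genes were chosen for these differences. Over all probes, the share of calls that were higher was 42.9% in LPS against Unstim and 44.5% in FA+LPS against FA, and became 63.4% and 76.9% with median scaling.

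Other genes of the pathway were followed in 6 lists of 73 genes, of which 55 were measured. In LPS against Unstim 8 rose, 7 fell and 40 were not called, beside the 17.9% of all probes called. In FA+LPS against FA 9 rose, 4 fell and 42 were not called, beside 16.3%. These shares count all probes, while each listed gene stands by its brightest one. With 1 probe a gene, 2567 of 12984 genes were called in FA+LPS against FA. With median scaling 9 and 8 of the 55 genes were called in LPS against Unstim and FA+LPS against FA. Over all 24195 probes, 1486 and 1430 were called with that scaling. Nrros, Bmpr2, Smad1, Nedd4l, Fn1 and Strap then lost their call in LPS against Unstim, and Ltbp3, Nrros, Smad1, Thbs1 and Tgif1 in FA+LPS against FA. None was called for fatty acid, with or without LPS, by limma. In FA+LPS against LPS, Nrros was called without FA+LPS replicate 4 (0.84, adjusted p = 0.0129), and Ccn2 with experiment as a block (-0.33, adjusted p = 0.045) and with slide as a block (-0.33, adjusted p = 0.0433). The median difference of the 55 was 0.008 and -0.002 in the LPS comparisons, beside -0.007 over all probes.

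The list of other ligands had 8 genes measured, of which Bmp1 encodes a protease and not a ligand of this family. Gdf3, a ligand related to nodal, was the one that changed, falling by 0.97 with LPS (limma, adjusted p = 1.23e-05) and by 1.09 in loaded cells (adjusted p = 1.65e-06). None of the 8 rose.

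Of 13 genes for ligand binding, latency and activation, 1 rose and 2 fell in LPS against Unstim, and 3 rose and 2 fell in loaded cells. Fst, which encodes follistatin, the secreted binder that neutralizes activin, rose by 1.00 ± 0.19 in loaded cells (limma, adjusted p = 0.00146). In cells without fatty acid its difference was 0.54 ± 0.20 (limma, adjusted p = 0.0867), which passed without LPS replicate 4 (0.68) and without FA+LPS replicate 3 (0.54). It also passed with experiment as a block (0.60, adjusted p = 0.0163) and with slide as a block (0.81, adjusted p = 0.000814). Ltbp3, a latent TGF-beta binding protein, fell by 1.74 and 1.10 (adjusted p = 1.37e-06 and 6.38e-05). Nrros, which anchors latent TGF-beta on myeloid cells, fell by 1.29 and 0.92 (adjusted p = 0.00029 and 0.00264). Itgav, the integrin chain that takes part in TGF-beta activation, rose by 0.69 and 0.55 (adjusted p = 0.00119 and 0.00387). Thbs1, thrombospondin 1, rose by 1.08 in loaded cells (adjusted p = 0.0341). That call was lost without any single FA array and without FA+LPS replicate 2, 3 or 4, where the difference was 0.81 to 1.09. In cells without fatty acid its difference was 0.88 (adjusted p = 0.114), which passed with experiment (0.92, adjusted p = 0.0401) and slide (1.10, adjusted p = 0.0294) as a block. Furin, a protease that cleaves the TGF-beta precursor, differed by 0.91 with LPS and was not called (adjusted p = 0.0985).

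Of 9 other receptors and co-receptors, Eng, the co-receptor endoglin, rose by 1.65 with LPS and by 1.23 in loaded cells (limma, adjusted p = 0.000288 and 0.00191). Bmpr2, the type II BMP receptor, fell by 0.50 with LPS (adjusted p = 0.00148), and its difference in loaded cells was -0.21 (adjusted p = 0.146). Acvr1b, the type I receptor for activin, differed by 0.49 and 0.42 without being called (adjusted p = 0.107 and 0.143). Of 4 other Smads measured, Smad1, a transducer of BMP signals, fell by 0.38 and 0.40 (adjusted p = 0.00444 and 0.00188). Smad2, the partner of Smad3, differed by -0.13 and -0.08, neither called (adjusted p = 0.513 and 0.689).

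Of 12 intracellular regulators, 4 rose and 1 fell in LPS against Unstim, and 4 rose in loaded cells. Skil, which encodes the Smad co-repressor SnoN, rose by 1.21 and 1.40 (limma, adjusted p = 5.92e-06 and 6e-07). Smurf1, a ubiquitin ligase for Smads and receptors, rose by 0.66 and 0.48 (adjusted p = 2.74e-05 and 0.000238). Pmepa1, a membrane protein that limits TGF-beta signalling, rose at least 1.27-fold in both (adjusted p = 0.000718 and 0.00298), a lower bound since it was not above background on any array of either group without LPS. Tgif1, a co-repressor, rose by 0.66 in loaded cells (adjusted p = 0.0128). In cells without fatty acid its difference was 0.54 (adjusted p = 0.0504), which passed with experiment as a block (0.60, adjusted p = 0.00849) and without Unstim replicate 1 or FA+LPS replicate 2, 3 or 4. Nedd4l, a ubiquitin ligase, fell by 1.00 with LPS (adjusted p = 0.00348), and its difference in loaded cells was -0.35 (adjusted p = 0.302). Strap, which binds the receptors, rose by 0.34 with LPS (adjusted p = 0.0414). That call was lost, at differences of 0.25 to 0.34, without Unstim replicate 3 or 4, FA replicate 2, 3 or 4, LPS replicate 1 or 2, or FA+LPS replicate 3.

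Of 9 genes known to respond to TGF-beta or activin, Tgm2, a transglutaminase, rose by 1.69 and 1.57 (limma, adjusted p = 0.000175 and 0.000172). Ccn2, a matricellular growth factor, rose by 0.53 with LPS (adjusted p = 0.000698). Its difference in loaded cells was 0.24 (adjusted p = 0.0758) and passed without LPS replicate 3, with experiment as a block (adjusted p = 0.0377) and with slide as a block (0.22, adjusted p = 0.0486). Fn1, which encodes fibronectin, fell by 1.73 with LPS (adjusted p = 0.00359), and its difference in loaded cells was -0.78 (adjusted p = 0.162; 0.00358 with experiment as a block). The list thus held genes that moved to both sides, and 6 of 9 were not called in LPS against Unstim.

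**Figure D4:**
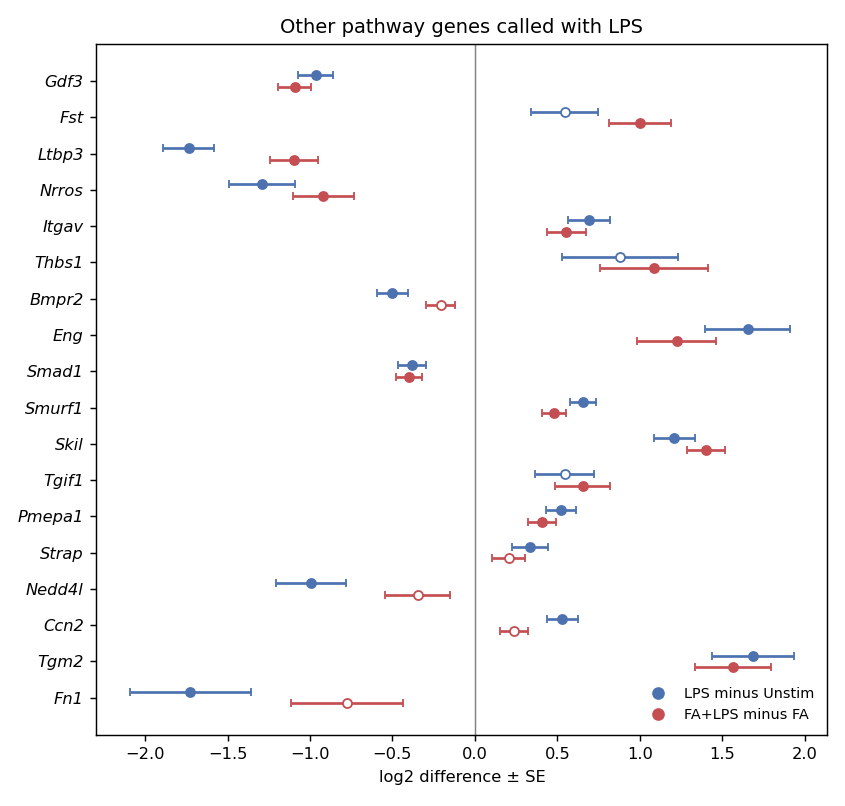
Log2 differences ± SE (x axis) with LPS in unloaded (blue) and loaded (red) cells for the 18 other pathway genes called in either comparison; filled points were called. Eng, Skil and Tgm2 lie above 1 in both, and Gdf3, Ltbp3 and Nrros lie below 0 in both.

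Over the 15 arrays, the genes whose log2 intensities were most like those of Inhba, by Pearson's r, were Ccl5 (0.999), Il1b (0.998) and Rasgrp1 (0.996). Ccl5 is a chemokine and Il1b an inflammatory cytokine. For Tgfbi they were Gpr84 (0.981), Hp (0.978) and Plpp1 (0.974), and for Tgfbr2 they were Daglb (0.981), Rassf5 (0.978) and Pros1 (0.978). For Tgfb1 they were Ppm1g (0.951), Clptm1 (0.951) and Inpp5a (0.941). These correlations describe arrays that share treatments, slides and experiments. Inhba and Tgfbi correlated at 0.918 over all arrays and at -0.252 once the group means were removed. Ppm1g still had an r of 0.953 with Tgfb1 after group means were removed.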

How the data were processed

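Per the labels' protocols, RNA from cultured macrophages was labelled with biotin for Illumina bead arrays. The deposited data are log2 signals of 45281 probes without normalization between arrays, and a value table of log2 intensities for 25784 of them. The latter differs from a quantile normalization of its probes by at most 0.000949, with a median of 6.03 on each array. No source used here names the software or an earlier background treatment. No detection p-values were used here, so background was set, after the tables were seen, at the 95th percentile of the 19497 probes outside the value table, per array.

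Signals were corrected with normexp (offset 50, without control probes) and quantile normalized over all probes. Probes above background on at least 3 arrays were fitted with limma 3.58.1 (R 4.3.3) over all 15 arrays (1 term, the group), with Benjamini-Hochberg adjustment over 24195 probes, called below 0.05, two-sided. Precision is limited by how many arrays a group has. The fit was also run on simulated data in which all arrays varied independently. That run does not cover the pairing of arrays by experiment. Probes were named from the platform annotation, where 21476 have 1 symbol, 10 several and 4298 none. The brightest tested probe stands for a gene. A probe above background on no array of a group gets a lower bound ("at least"), against the higher of its own signal and the lowest signal above background. The members, gene lists and tests were chosen with earlier results of these data known. All members, and the pathway genes called in either LPS comparison plus a few uncalled ones chosen after their values were seen, are named.

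The labels call the replicate numbers experiments. Deviations from group means correlated with a median r of 0.222 over 21 same-experiment pairs (-0.0122 to 0.771) and -0.0701 over 63 others. The same-experiment pairs of an LPS with an FA+LPS array had the highest values, 0.568 to 0.771. Alternatives were experiment or slide as a block, the authors' value table, median scaling, no background correction, an offset of 16, no filter, 1 probe a gene, and leaving out each array. Promoter sequences are RefSeq's, matched by symbol for 8 of 8 genes.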

Additional observations from a re-analysis of the deposited data

How the results depend on the processing

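No called value changed direction under any alternative run. Of the values for the brightest probe of each of the 8 genes and the dimmer Tgfbi probe, 1224 kept their side of the threshold, 5 gained a call and 7 lost one, all 7 with median scaling. The calls gained were Acvr1 in FA+LPS against Unstim with experiment (0.29) or slide (0.30) as a block or without FA replicate 1 (0.26), Tgfb1 in LPS against Unstim with slide as a block (1.18), and the dimmer Tgfbi probe in FA+LPS against LPS without FA+LPS replicate 4 (1.09). The dimmer Tgfbr2 probe gained one in FA+LPS against FA without FA replicate 1 (-0.29). The calls lost were Tgfbr1 (-0.59) and the dimmer Tgfbi probe (1.31) in LPS against Unstim, Tgfbr1 (-0.59), Tgfbr2 (-1.07) and Smad3 (-0.71) in FA+LPS against FA, and Tgfbr1 (-0.63) and Tgfbr2 (-1.37) in FA+LPS against Unstim. The causes were not tested. Median scaling left 3 of 14 probes called in FA+LPS against FA, and over all probes 1486, 1430 and 1173 in LPS against Unstim, FA+LPS against FA and FA+LPS against Unstim, 10 in FA+LPS against LPS and 0 in the interaction, the test of the difference between the fatty acid effects. The share of higher calls in FA+LPS against Unstim went from 42.6% to 67.2%.

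Experiments pair the arrays. With experiment as a replicate block, FA+LPS against LPS gave 428 called probes where the fit without it gave 126, and the interaction gave 20 where it gave 6. Beside that of Acvr1, the block changed no call among the 14 probes of the 8 genes. With slide as a block those counts were 201 and 1. With 1 probe a gene, where fewer features are tested by construction, 2567 and 2376 genes were called in FA+LPS against FA and against Unstim. Leaving out each array gave 1 to 2 called probes in FA against Unstim, 66 to 203 in FA+LPS against LPS, of which 0 to 1 belonged to the 8 genes, and 1 to 25 in the interaction. Acvr2a and the dimmer probes of Acvr1, Tgfbr1, Tgfbr2 and Smad3 lie near background, as do Inhba and Tgfbi without LPS. This limits what could be seen of them there.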
